A study of Mus musculus with 80 samples.

Results

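Gene expression after 72 h of 2i was set against expression after 24 h of 2i in wild-type E14 mouse embryonic stem cells (ESCs). The deposited RNA-seq table has 25965 rows, of which 12306 passed a filter on low values and were tested, and the members are the 6 libraries of both times out of 12 RNA-seq libraries and 80 samples in the series. The ESCs had grown in serum with LIF and were moved to serum-free N2B27 with LIF, the MEK inhibitor PD0325901 and the GSK3 inhibitor CHIR99021, the medium called 2i. Cells at 24 h and at 72 h thus shared line, genotype and medium and differed in the time spent in it. Serum cells and cells at 6 h of 2i (3 libraries each, as for 24 and 72 h) served to place the levels. They also entered the estimate of spread behind every p-value. Their replicates lay closer together (SD of the log2 difference between 2 libraries 0.23 to 0.32) than those of 24 h (0.35 to 0.74) and 72 h (0.37 to 0.59). E14 is an established line, so the results concern a single genetic background. The replicates are known only by number, so p-values measure the spread within the 4 groups of these 12 libraries.

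2i blocks ERK signalling through MEK and stabilises beta-catenin through GSK3, and ESCs in it take on the naive state, with high levels of factors such as Klf4, Tfcp2l1 and Prdm14. Formative and primed genes, among them Fgf8, Pou3f1 and the de novo methyltransferases, belong to the step that follows in the embryo. Passage from serum to 2i also lowers DNA methylation over days, and germ line genes kept silent by promoter methylation are known to respond to its loss.

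Values are log2 expression per gene, corrected by the authors for gene length and depth and set to a common upper quartile of 2.51 in every library. A difference of 1 on this scale is a doubling, and all differences below are the mean of 72 h minus the mean of 24 h. The 8 ESC markers checked, Pou5f1 and Sox2 among them, ran from 4.59 to 11.30 in the 6 libraries, and their summed linear level was 2054 to 4128 at 24 h and 2197 to 3605 at 72 h. Total reads per library are unknown. Genes without reads carry a small entry that differs from that of serum replicate 1 by -0.29 to 0.27.

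Before any gene is named, 2 libraries need mention, because they stood apart within their groups. Relative to serum, long genes were low and short genes high in the 24 h libraries, and the gap between the longest and the shortest of 5 classes of genes by genomic span was -1.28, -1.13 and -0.35 in replicates 1 to 3. At 72 h the gap was -0.20, -0.73 and 0.03, while serum and 6 h libraries stayed between -0.08 and 0.15. Replicate 3 of 24 h therefore lay nearer to 72 h, and replicate 2 of 72 h lay nearer to 24 h, than their group mates. What produced the trend was not tested.

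Between the 24 h and 72 h libraries many of the tested genes differed, in both directions. Of 12306 genes tested by limma, 1913 were higher at 72 h (15.5%) and 1905 were lower (15.5%) at a Benjamini-Hochberg adjusted p under 0.05, together 31.0%. With a difference of 1 or more on the log2 scale as well, 584 rose (4.75%) and 586 fell (4.76%). The 3 libraries of each time did not overlap for 2027 genes higher at 72 h (16.5%) and 2101 lower (17.1%). The median difference over all genes was -0.07. Against serum, 9.21% of tested genes were called higher and 6.51% lower at 6 h, 33.9% and 29.0% at 24 h, and 25.5% and 26.3% at 72 h. For 239 tested genes the filter on low values was met in only 1 of the 4 groups.

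Single libraries weighed on these counts. Without 24 h replicate 3 the number of calls rose from 3818 to 6618, without 72 h replicate 1 it fell to 2369, and without both libraries that stood apart it was 7668, of which 3567 were among the 3818. In that last setting 27.99% of all genes were called higher and 34.32% lower, and every list count without the 2 libraries is to be read against these shares. Both libraries were picked for lying nearer to the other time. Leaving them out therefore pulls the 2 groups apart and narrows their spread, so the added calls are no independent check. The span of genes moved with the result: calls of higher genes made up 7.52% of the shortest class and 30.7% of the longest, and calls of lower genes 19.1% and 8.94%. Medians of the difference ran from -0.33 in the shortest to 0.29 in the longest class (Spearman's rho across genes 0.372, as a description). After a span trend had been removed from each library, 3796 genes passed, 3028 of them among the 3818. In that setting 16.83% of all genes were called higher and 14.02% lower, and after quantile normalisation 17.25% and 15.34%. List counts in these settings are to be read against those shares. A fit of the 6 libraries alone gave 1564 calls, 1548 of them among the 3818.

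**Figure D1:**
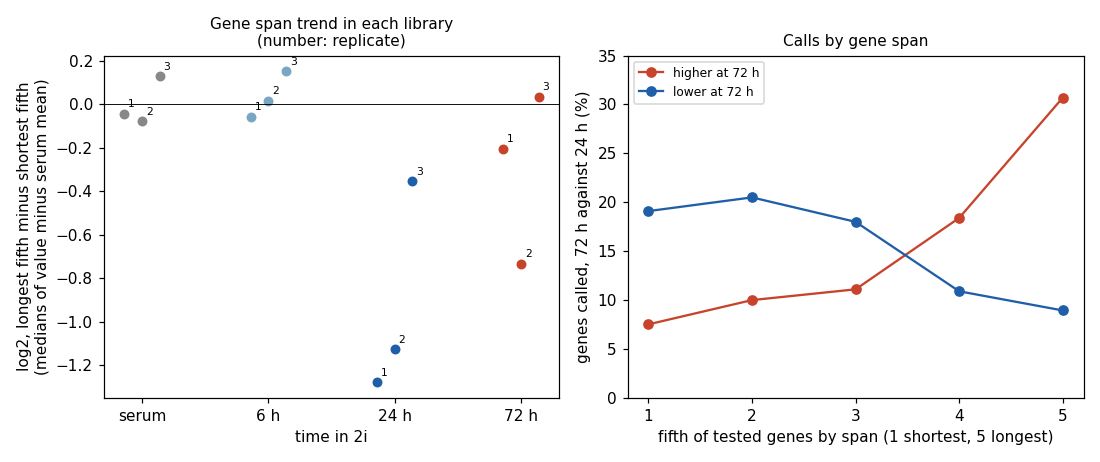
Left, the gap between the longest and shortest of 5 span classes of genes in each library (log2, medians of the value minus the serum mean), by time in 2i, with the replicate number beside each point. Right, the percent of genes called higher (red) and lower (blue) at 72 h in each class of genomic span. In the 24 h group the gaps are -1.28, -1.13 and -0.35, and calls of higher genes climb to 30.7% in the longest class.

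Of the 10 largest rises, 8 were of genes that met the filter on low values only through the 72 h group (Slc24a5, Bhmt, Pkd2l1, Myom2, Krtdap, Ceacam10, Lcp1 and Grin1). Their low earlier levels and their direction thus follow from that filter, and their values are descriptions. Ly6a and Parm1 did not depend on it. Ly6a, which encodes the surface protein Sca-1, stood at 0.37, -0.16 and -1.18 in the 24 h libraries and at 4.71, 5.16 and 4.36 at 72 h, a rise of 5.06 (SE 0.34, limma adjusted p 3.58e-06), or 33.4-fold. In serum it was at 0.63 to 1.06, so that all 3 libraries of 72 h lay above every earlier one.

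Parm1, a mucin-like gene, was flat from serum (-0.15 to 0.43) to 24 h (-0.16, 0.10 and 0.19) and reached 3.73, 3.30 and 3.68 at 72 h. Lcp1, an actin-bundling protein, went from -3.63, -3.07 and -2.76 to 0.35, 0.23 and 0.54. Grin1, a subunit of the NMDA receptor, went from -1.48, -1.21 and -0.96 to 2.24, 2.12 and 2.49. In these 3 genes the 72 h libraries lay close together and above every earlier library. Slc24a5 (4.09), Pkd2l1 (3.92), Myom2 (3.77), Krtdap (3.61) and Ceacam10 (3.58) completed the list of the 10 largest rises with Bhmt, described further on. Slc24a5 was at low levels at 24 h, with -2.50, -5.36 and -2.68, and Pkd2l1 likewise, with -2.20, -3.96 and -2.58.

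The largest falls held several secreted factors. Wnt8a, a Wnt ligand, was at -0.57, 0.54 and 0.05 at 24 h and at -5.33, -5.01 and -3.48 at 72 h (difference -4.62, SE 0.41, limma adjusted p 2.51e-05), with 2 of the last 3 at the entry for genes without reads. Rspo1, which amplifies Wnt signals at the receptor, fell from 0.42, 0.26 and 0.56 to -3.48, -5.16 and -2.41. Fgf8, a fibroblast growth factor of the early embryo, fell from 1.96, 1.88 and 1.37 to -1.79, -1.06 and -2.38, after it had risen from serum (-0.81 to -0.49) to 24 h. The chemokine gene Cxcl10 was at 1.12, 1.11 and 0.74 at 24 h, at -2.32, -3.23 and -3.87 at 72 h and at -0.84 to -0.66 in serum. It met the filter on low values only through 24 h, so its rise and fall follow from that filter and its values are descriptions. All 3 libraries of 72 h lay below every serum library for these 4 genes.

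Cend1, a gene of cell cycle exit in neurons, and the trypsin inhibitor Spink3 went down to the entry for genes without reads in all 3 libraries of 72 h, from -0.21, -0.16 and -0.71 and from 1.86, 1.01 and -0.05 at 24 h, so no fold is given for them. The hyaluronan synthase Has2 fell too (SE of the difference 0.14), with -0.24, -0.32 and -0.07 at 24 h against -3.61, -3.97 and -3.54 at 72 h. Cyp1a1, like Cxcl10, had met the filter through 1 group only, so its values are descriptions too. Cyp1a1, Tmem54 and Car3 fell by 3.60, 3.47 and 3.45. The 10 of these 20 genes that met the filter through more than 1 group kept their direction and call under every alternative that tested them, the libraries left out in turn included. They were chosen for large differences without overlap, so a left-out library could not turn their direction. The kept calls are therefore no independent check.

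**Figure D2:**
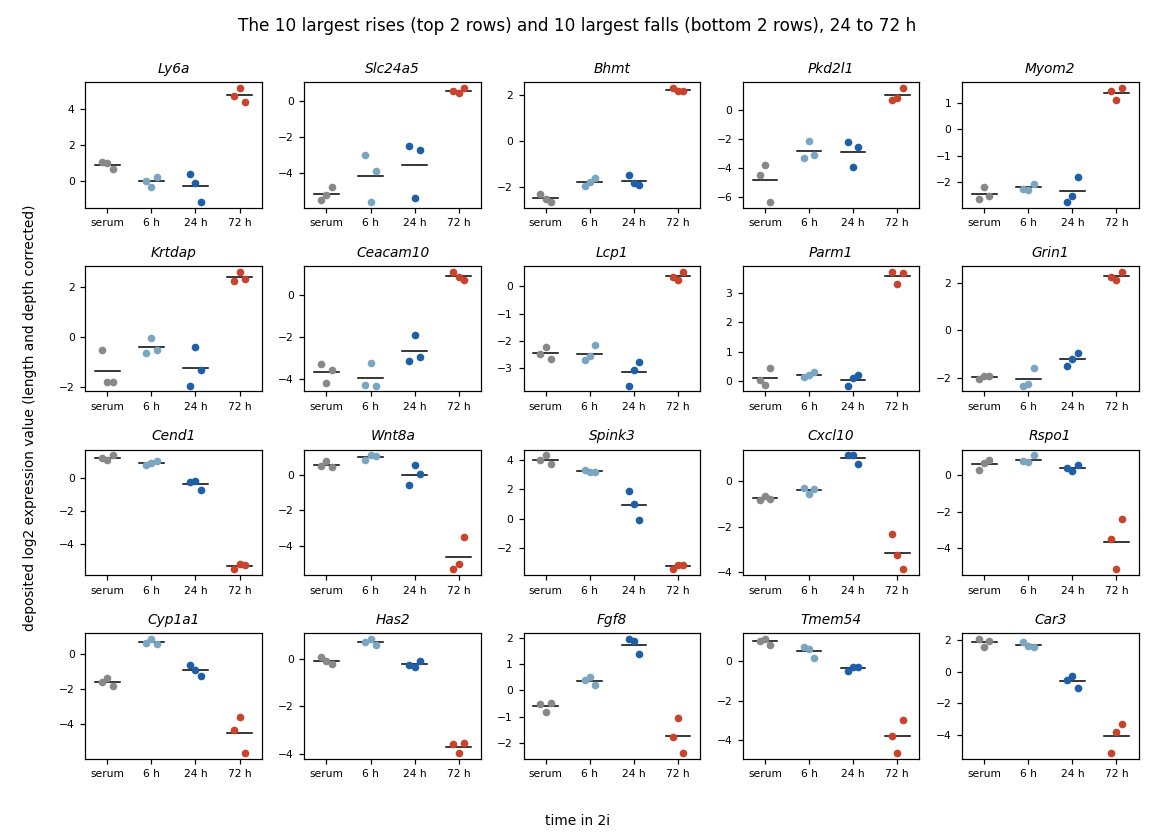
Deposited log2 values of the 10 largest rises (upper panels) and the 10 largest falls (lower panels) in serum and at 6, 24 and 72 h of 2i. Points are single libraries (3 per time), bars their mean. Ly6a sits at -1.18 to 0.37 at 24 h and at 4.36 to 5.16 at 72 h, and genes were chosen to have no overlap between the 24 h and 72 h libraries.

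Bhmt, the enzyme that remethylates homocysteine with betaine, rose from -1.51, -1.86 and -1.93 at 24 h to 2.30, 2.16 and 2.16 at 72 h, a difference of 3.97 (SE 0.14). As it met the filter only through 72 h, no test is given for it. Its neighbours on chromosome 13, looked at after the values were seen, moved with it. Dmgdh, which takes methyl groups off dimethylglycine, the product of the Bhmt reaction, went from 0.25, 0.30 and 0.19 to 3.64, 3.45 and 3.46 (difference 3.27, SE 0.12). Bhmt2, a close relative of Bhmt that uses another methyl donor, went from -0.80, -0.24 and -0.21 to 2.33, 2.24 and 2.55 (difference 2.79, SE 0.25).

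Of the other 4 tested genes within 500 kb, Jmy rose by 0.90 and Homer1 by 0.33, and Papd4 (0.09, adjusted p 0.488) and Arsb (0.18, adjusted p 0.587) did not pass. Bhmt and Bhmt2 are related in sequence, and reads shared between relatives could not be checked in the deposited values. Bhmt2 and Dmgdh start back to back, with 133 bases between their RefSeq starts (GRCm38.p6, chr13:93674303-93674435, plus strand, which holds 6 CpG). The 250 bases before the RefSeq start of Bhmt lie at chr13:93637759-93638008 (minus strand). Both are shown because these 3 genes are among the steepest rises of the interval. In capitals is TCAAGGTCA, the element bound by Esrrb and Nr5a2, searched on both strands. It occurs before 0.348% of tested genes with a promoter entry (29 of 8329), and it is in the Bhmt window once and not in the other.
Bhmt: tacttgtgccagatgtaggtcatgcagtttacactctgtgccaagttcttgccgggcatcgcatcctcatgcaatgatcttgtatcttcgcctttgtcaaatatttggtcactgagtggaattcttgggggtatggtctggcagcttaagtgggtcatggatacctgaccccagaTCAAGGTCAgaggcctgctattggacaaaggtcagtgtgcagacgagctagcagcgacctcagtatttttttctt
Bhmt2 to Dmgdh: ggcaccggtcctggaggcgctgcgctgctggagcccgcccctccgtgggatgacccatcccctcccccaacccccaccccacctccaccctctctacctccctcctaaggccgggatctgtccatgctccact
The element was found before 0.45% of genes called higher (6 of 1333), 0.312% of genes called lower (4 of 1284) and 0.333% of genes not called (19 of 5712).

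Of 15 naive pluripotency factors tested, 7 were called higher at 72 h (46.7%, against 15.5% of all genes) and none lower, and the median difference was 0.66. Klf5, a Kruppel-like factor, was at 4.01, 4.54 and 5.21 at 24 h and at 6.40, 5.77 and 6.30 at 72 h (difference 1.57, SE 0.26, limma adjusted p 0.00115). It had dropped from 6.23 to 6.37 in serum, so that at 72 h it was back near the serum level. Tfcp2l1, a factor that sustains the naive state, had reached 6.02 to 6.29 by 6 h, was lower at 24 h (4.63, 5.00 and 5.66) and stood at 6.45, 5.98 and 6.63 at 72 h. The orphan receptor Nr5a2 followed the same path, with 2.88, 3.22 and 3.52 at 24 h and 4.41, 4.16 and 4.43 at 72 h. In Klf5, Tfcp2l1 and Nr5a2 the 24 h library with the small span gap (replicate 3) was the highest of its group. The 72 h library with the large gap (replicate 2) was the lowest of its group. Their calls were kept with the span trend removed, but the part of this trend in the lower 24 h levels was not tested.

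Klf4 rose from 5.62, 5.79 and 5.75 to 6.68, 6.67 and 6.53 (difference 0.91, SE 0.11) after a difference of 0.44 from serum to 24 h. Prdm14, a repressor of the de novo methyltransferases, went from 2.95, 2.93 and 3.23 to 4.21, 4.07 and 4.14. Tbx3 rose by 0.99. For these genes the libraries of the 2 times did not overlap. Zfp57, a zinc finger protein that guards imprints, rose by 0.95 but overlapped (4.25, 4.26 and 5.08 against 5.25, 5.08 and 6.11) and was not called without 24 h replicate 1, 24 h replicate 2 or 72 h replicate 3.

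The other 8 naive factors did not pass. Nanog was at 8.59, 8.42 and 7.98 at 24 h and 8.56, 8.63 and 8.29 at 72 h (difference 0.17, adjusted p 0.445). Klf2 differed by 0.17 (adjusted p 0.314), Zfp42 by 0.15 (0.41), Fbxo15 by 0.22 (0.476), Tcl1 by 0.23 (0.159) and Nr0b1 by 0.05 (0.831). Esrrb (0.37, adjusted p 0.067) and Dppa3 (0.66, adjusted p 0.0747) lay close to the threshold. With the span trend removed 13 of the 15 passed, all higher, where 16.83% of all genes were higher. With the 2 libraries that stood apart left out 8 were higher, against 27.99% of all genes.

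**Figure D3:**
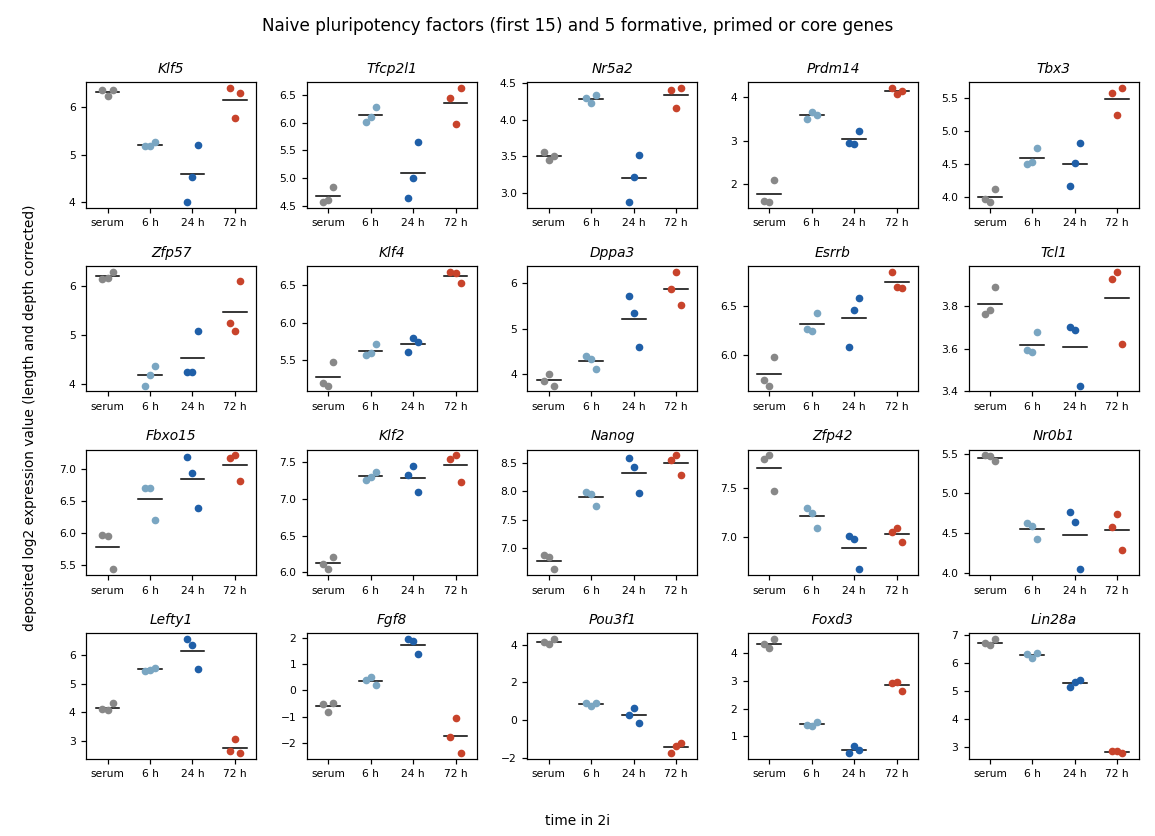
Deposited log2 values of the 15 naive pluripotency factors, ordered by their difference from 24 to 72 h, and of Lefty1, Fgf8, Pou3f1, Foxd3 and Lin28a, in serum and at 6, 24 and 72 h of 2i. Points are single libraries, bars the mean of 3. Tfcp2l1 and Nr5a2 are high at 6 h, lower at 24 h and high again at 72 h, and Lefty1 peaks at 24 h at 5.53 to 6.57 and ends at 2.57 to 3.05.

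Formative and primed genes mostly went the other way: 9 of 14 tested were lower at 72 h (64.3%), 2 were higher (14.3%), against 15.5% each over all genes, and the median difference was -0.64. Lefty1, an inhibitor of Nodal, stood at 6.57, 6.36 and 5.53 at 24 h and at 2.63, 3.05 and 2.57 at 72 h (difference -3.40, SE 0.23, limma adjusted p 4.1e-06). In serum it was at 4.07 to 4.30, so the gene had climbed for 24 h and then dropped below its start. Lefty2 fell by 1.21 and Nodal, the ligand, by 0.31 without passing. Pou3f1, a POU factor of the formative epiblast, was at 0.30, 0.66 and -0.12 and then at -1.72, -1.34 and -1.21, after 4.02 to 4.29 in serum.

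Foxd3 moved against its list. This forkhead factor, needed to maintain pluripotent cells, went from 0.40, 0.65 and 0.50 at 24 h to 2.94, 2.96 and 2.65 at 72 h (difference 2.34, SE 0.13, limma adjusted p 1.06e-06), past the midpoint of the way back to serum (4.21 to 4.52). The zinc finger gene Zic2 rose by 1.29. Among 10 core pluripotency genes 4 rose (40.0%) and 1 fell (10.0%), where 15.5% of all genes did each, with Pou5f1 (-0.33) and Sox2 (0.22) not called. The gene that fell was Lin28a, an RNA-binding protein that blocks let-7 maturation, with 5.13, 5.32 and 5.37 at 24 h and 2.83, 2.83 and 2.78 at 72 h (difference -2.46, SE 0.10, limma adjusted p 1.33e-07). L1td1 rose by 1.02, Dppa2 by 0.97 and Utf1 by 0.65.

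Of 19 ERK targets tested, 17 were called below serum at 24 h (29.0% of all genes). From 24 to 72 h 5 fell (26.3%), 2 rose (10.5%) and the median was -0.26, with 15.5% of all genes called in each direction. This balance depended on the scaling. With the span trend removed 4 fell and 3 rose (median -0.04), and after quantile normalisation 3 fell and 4 rose (median -0.22). Dusp4, a phosphatase that limits ERK, fell from -1.29, -0.79 and -0.63 to -2.52, -1.58 and -2.40. Spry1, a feedback inhibitor, had come up from 0.26 to 0.50 at 6 h to 1.53, 1.62 and 1.44 at 24 h and was at 0.38, 0.52 and 0.10 at 72 h. Etv1 went up from -2.84, -2.79 and -2.27 to -1.20, -2.24 and -1.24 and Ier3 from 1.23, 1.29 and 1.06 to 2.25, 2.09 and 2.14, both still below serum. The call of Etv1 was lost with a pseudocount of 1 and in the fit of the 6 libraries alone. In 3 of the 19 the filter was met only by 1 group, so their direction against that group follows from the filter.

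Of the LIF pathway and its targets, 6 of 10 were higher and 1 lower (15.5% of all genes each), with a median of 0.41. The receptor chains Il6st (difference 1.00, SE 0.19) and Lifr (0.60), the kinase Jak1 (0.38) and Stat3 itself (0.44) were among them, as were the Stat3 targets Bcl3 (0.88) and Pim1 (0.61). Il6st was at 2.35, 2.75 and 3.13 at 24 h and 3.80, 3.46 and 3.97 at 72 h, against 3.51 to 3.75 in serum. Gbx2, another target, fell from 2.13, 2.47 and 2.11 to 1.53, 1.72 and 1.29. The best known feedback gene of the pathway, Socs3, differed by 0.03.

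For Wnt and beta-catenin targets the count was 4 higher (33.3%) and 2 lower (16.7%) of 12, against 15.5% each over all genes, with a median of 0.20. Axin2, the negative feedback gene, rose by 0.84, and Cdx1, a caudal homeobox gene, went from 3.93, 3.95 and 2.77 to 4.75, 5.45 and 4.33, after -0.45 to 0.23 in serum. Ccnd1, cyclin D1, fell from 2.92, 3.27 and 3.04 to 2.23, 2.12 and 2.19, and Nkd1 from 0.18, 0.25 and 0.17 to -0.51, -0.64 and -0.84. T, or brachyury, differed by -0.02. Cdx2 scattered between -4.64 and -1.09 at 24 h and did not pass (2.01, adjusted p 0.0549).

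In the BMP list 5 of 10 were higher and 1 lower, against 15.5% of all genes each (median 0.49). Id1, an inhibitor of basic helix-loop-helix factors, kept falling, from 1.70, 1.31 and 0.57 at 24 h to -0.49, -0.62 and -0.31 at 72 h, while Id4 rose by 0.49. Smad7, an inhibitor of the pathway, rose from 2.90, 3.20 and 3.09 to 4.52, 4.60 and 4.49. Gata2 went from 1.25, 1.46 and 1.49 to 2.51, 2.44 and 2.27 and Msx2 rose by 0.97.

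Of 13 genes of the DNA methylation machinery tested, Dnmt3l and Dnmt3b fell and Tet1 and Tet2 rose, 15.4% in each direction and thus near the 15.5% over all genes. Without the 2 libraries that stood apart 6 were higher and 2 lower, where 27.99% and 34.32% of all genes were. Dnmt3l, the catalytically inactive partner of the de novo enzymes, was at 3.14, 3.22 and 2.70 at 24 h and at 0.80, 1.11 and 0.99 at 72 h (difference -2.06, SE 0.14, limma adjusted p 3.62e-06). Dnmt3b fell from 2.75, 3.05 and 3.14 to 2.22, 1.88 and 2.27 (difference -0.86, SE 0.14). Dnmt3a, a de novo enzyme like Dnmt3b, was at 0.71, 0.86 and 0.98 at 24 h and 0.72, 0.58 and 0.69 at 72 h (difference -0.19, adjusted p 0.199). It passed as lower once the span trend was removed (adjusted p 0.00257), and its difference was -0.26 to -0.12 with single libraries left out, never passing there.

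Tet2, which oxidises methylated cytosine, went from 1.22, 1.21 and 2.50 at 24 h to 3.69, 3.15 and 4.26 at 72 h (difference 2.06, SE 0.34, limma adjusted p 0.00128), close to the 4.14 to 4.36 of serum. Tet1 rose from 3.10, 2.83 and 3.80 to 4.21, 3.66 and 4.66, with groups that overlap and a call that was lost without 24 h replicate 1 or 2 or 72 h replicate 1 or 3. For Tet1 and Tet2 the 24 h library with the small span gap (replicate 3) was the highest of its group and the 72 h library with the large gap (replicate 2) the lowest of its group. With the span trend removed 2 genes of the list were called higher and 3 lower. Tet3 differed by 0.18 (adjusted p 0.674).

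The maintenance genes did not pass. Uhrf1, which brings Dnmt1 to newly copied DNA, was at 5.95, 6.07 and 5.96 at 24 h and 6.05, 5.87 and 6.01 at 72 h (difference -0.02, SE 0.11, adjusted p 0.912). Dnmt1 was at 4.46, 4.86 and 5.32 and at 5.48, 4.99 and 5.58 (difference 0.47, adjusted p 0.118), and passed without 24 h replicate 3 or without 72 h replicate 2. Uhrf2 (-0.04), Hells (0.18), Tdg (-0.26), Mbd4 (0.26) and Zbtb24 (0.22) did not pass.

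**Figure D4:**
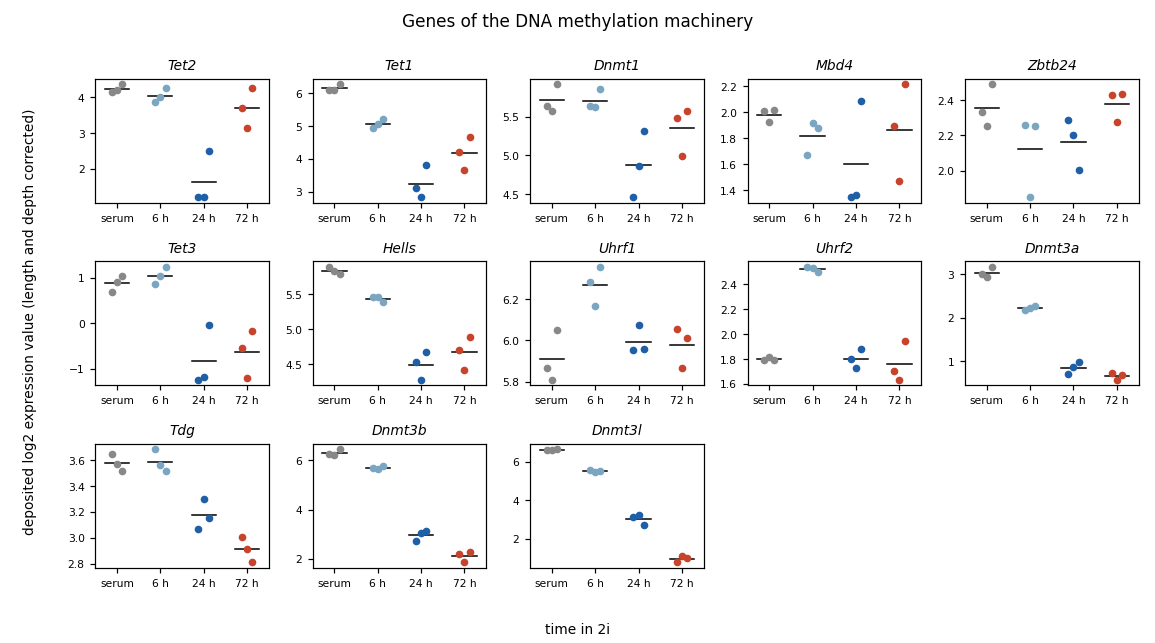
Deposited log2 values of 13 genes of the DNA methylation machinery in serum and at 6, 24 and 72 h of 2i, ordered by their difference from 24 to 72 h. Points are single libraries, bars the mean of 3. Tet2 falls to 1.21 to 2.50 at 24 h and is at 3.15 to 4.26 at 72 h, while Dnmt3l falls at each time and Uhrf1 stays between 5.81 and 6.36.

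Among 16 genes that write or erase H3K9 methylation 5 rose and 2 fell, and without the 2 libraries that stood apart 10 were higher and 2 lower. Over all genes the share was 15.5% in each direction, and 27.99% higher and 34.32% lower without the 2 libraries. The demethylase Kdm3a went from 4.28, 4.26 and 4.39 to 5.30, 5.03 and 5.44 (difference 0.95, SE 0.12), and Kdm3b (1.01) and Kdm4b (0.67) rose too, all 3 from below serum. Kdm4b was not called without 72 h replicate 3. Of the methyltransferases, Setdb1 (0.66) and Setdb2 (0.41) rose and Suv39h1 (-0.52) and Suv39h2 (-0.45) fell. Ehmt1 (-0.22) and Ehmt2 (-0.10), the pair that places H3K9me2, did not pass.

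Germ line genes that are silenced by promoter methylation in somatic cells were mostly higher at 72 h, with 10 of 17 tested called higher (58.8%, against 15.5% of all genes), 1 lower and a median of 0.60. Dazl, an RNA-binding protein of germ cells, went from 2.03, 1.35 and 0.82 at 24 h to 3.33, 3.72 and 3.28 at 72 h (difference 2.04, SE 0.26, limma adjusted p 0.000224). Stra8, which triggers meiosis, went from 4.51, 4.48 and 4.07 to 6.16, 6.24 and 6.10 (difference 1.81, SE 0.14), having started at 1.32 to 1.58 in serum. Brdt, a testis bromodomain protein, was at 1.69 to 1.77 at 6 h, at -0.25, -0.31 and -0.01 at 24 h and at 1.76, 1.61 and 1.76 at 72 h.

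Only Sycp3, a protein of the meiotic chromosome axis, was called lower, a call lost in the fit of the 6 libraries alone (limma adjusted p 0.0719). It was at 6.83, 5.99 and 5.43 at 24 h and at 4.66, 5.23 and 4.49 at 72 h, still above the 2.88 to 3.39 of serum. Ddx4 (0.12), Mael (-0.51) and Tex101 (-0.65) did not pass. Of the 17 genes, 15 had a RefSeq promoter entry, and 10 of these (66.7%) held the E-box CACGTG in the 250 bases before the start, against 10.5% of tested genes with an entry (875 of 8329). It was there in 5 of 8 genes called higher, in the gene called lower and in 4 of 6 not called. The windows of Brdt (chr5:107330944-107331193, plus strand) and Sycp3 (chr10:88459337-88459586, plus strand) are shown because the 2 genes carry the same element and moved in opposite directions. The E-boxes are in capitals, and the windows hold 16 and 12 CpG against a median of 6 over all entries.
Brdt: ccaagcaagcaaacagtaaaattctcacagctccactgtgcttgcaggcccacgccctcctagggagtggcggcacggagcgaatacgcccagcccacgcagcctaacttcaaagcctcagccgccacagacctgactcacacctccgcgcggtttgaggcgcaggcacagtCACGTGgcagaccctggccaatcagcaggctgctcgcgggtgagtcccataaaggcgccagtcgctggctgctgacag
Sycp3: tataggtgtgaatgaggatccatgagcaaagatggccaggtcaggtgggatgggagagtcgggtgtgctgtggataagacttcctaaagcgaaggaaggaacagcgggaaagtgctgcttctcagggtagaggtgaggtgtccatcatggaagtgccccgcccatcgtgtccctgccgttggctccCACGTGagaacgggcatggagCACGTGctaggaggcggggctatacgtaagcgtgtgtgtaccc

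Markers of other cell types give a mixed picture. In bulk samples, fewer cells of a type and less RNA per cell cannot be told apart. Of 9 mesendoderm markers 3 were tested and 1 was called higher (33.3%, against 15.5% of all genes). This was Eomes, which rose from -1.38, -1.15 and -0.96 to 1.16, 0.95 and 0.98, above serum at 0.43 to 0.82. Gsc (1.09) and Wnt3 (-0.30) did not pass. The summed linear level of these 3 was 2.24 to 4.76 at 24 h and 5.42 to 8.62 at 72 h. Of 10 neural markers 4 were tested. Neurod1, a proneural factor, fell from 1.13, 0.96 and 1.24 to -1.58, -1.96 and -3.13, Tubb3 fell by 1.10, and the sum of the 4 went from 64.3 to 80.0 at 24 h to 32.5 to 36.9 at 72 h.

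Of 10 trophoblast markers 8 were tested, 4 rose and 3 fell (50.0% and 37.5%, against 15.5% of all genes each). In 1 of the 8 the filter was met by 1 group only. With the span trend removed 5 rose and 1 fell, and after quantile normalisation 4 rose and 3 fell. The summed level of the 8 was 117 to 177 at 24 h and 99.6 to 138 at 72 h. Tfap2a went from -1.61, -1.03 and -0.49 to 0.84, 0.40 and 1.04 and Tfap2c from 4.12, 4.42 and 4.37 to 5.39, 5.24 and 5.25, while the keratin Krt8 fell by 1.16 and Ascl2 by 1.33. The call of Ascl2 was lost with the span trend removed, and that of Krt8 in the fit of the 6 libraries alone. Of 15 primitive endoderm markers 10 were tested, and 4 were higher (40.0%) and none lower, against 15.5% of all genes each. In 3 of the 10 the filter was met by 1 group only, so their direction against that group follows from the filter. The summed level of the 10 was 39.9 to 76.0 at 24 h and 63.5 to 104 at 72 h. Fibroblast markers, 5 of 13 tested, summed to 35.8 to 58.3 and 21.1 to 29.95, with Tagln lower by 1.77 and Pdgfrb higher by 1.71. The part of such cells in the results was not tested.

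Targets of serum response factor and YAP, which depend on the actin cytoskeleton, were lower in 7 of 15 and higher in 1 (15.5% of all genes in each direction), and 6 of the 15 differences were above 0. In 1 of the 15 the filter was met by 1 group only. Gja1, connexin 43, was at 3.75, 3.76 and 3.69 and then at 1.71, 1.49 and 1.18 (difference -2.27, SE 0.14, limma adjusted p 1.79e-06), after 5.85 to 6.04 in serum. The calponin gene Cnn1 was as high at 24 h (1.54, 1.45 and 0.91) as in serum and fell to -1.24, -1.06 and -0.98, and Myl9, a myosin light chain, fell by 1.70. Actb (0.03) and Actg1 (0.02), the abundant actins, did not pass. In the list of matrix and adhesion genes 7 of 18 rose (38.9%) and 2 fell (11.1%), against 15.5% of all genes each, with Fn1, fibronectin, at 5.47, 5.93 and 6.89 against 7.77, 7.01 and 8.05 and Epcam, an epithelial adhesion protein, at 5.84, 5.83 and 5.57 against 4.61, 4.64 and 4.45.

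Genes of the amino acid stress response and serine synthesis were raised in 2i. Of 22 tested genes 21 were called above serum at 24 h (33.9% of all genes) and 21 at 72 h (25.5% of all genes). Between the times 7 fell (31.8%) and 2 rose (9.09%), against 15.5% of all genes each, with a median of -0.32. With the span trend removed 4 were lower (median -0.17), and after quantile normalisation 5 (median -0.07). Ddit3, a stress-induced factor known as CHOP, was at 4.40, 4.39 and 4.40 and then at 3.05, 3.10 and 2.81 (difference -1.41, SE 0.11, limma adjusted p 9.87e-06), between 24 h and serum (1.51 to 1.70). Ddit4, an inhibitor of mTORC1, fell from 6.49, 6.69 and 6.17 to 5.36, 5.56 and 5.19. Trib3 (-0.75) and Phgdh (-0.85), the first enzyme of serine synthesis, fell with calls that did not survive the loss of 24 h replicate 1 or 2 or of 72 h replicate 1 or 3. Asns, asparagine synthetase, rose by 0.58.

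Of 14 p53 targets 3 fell (21.4%) and 2 rose (14.3%), near the 15.5% of all genes, with the apoptosis gene Bbc3 lower by 1.05. Glycolysis genes gave 6 higher and 4 lower of 21 (28.6% and 19.0%), and their median (-0.21) turned to 0.09 under quantile normalisation. Without the 2 libraries that stood apart 7 were higher and 10 lower, with a median of -0.34. Both hexokinases rose, Hk1 from 2.44, 2.88 and 3.12 to 3.99, 3.52 and 4.00 and Hk2 from 3.79, 4.06 and 4.52 to 5.09, 4.72 and 5.29, whereas Eno2, which met the filter only through 24 h, was at 1.18, 1.15 and 1.79 and then at -0.38, -0.54 and -0.02. In lipid synthesis 4 of 25 genes were higher and 2 lower, near or below the 15.5% of all genes in each direction. The desaturase Scd1 rose from 5.26, 5.25 and 5.31 to 6.37, 6.03 and 6.33, with 3.24 to 3.55 in serum, and Elovl6 rose by 0.98. Of 15 antioxidant genes 3 rose, namely Gsta3 (1.56), Gstm2 (1.20) and the zinc exporter gene Slc30a1 (1.08), and 1 fell. The 20.0% that rose is near the 15.5% of all genes. With the span trend removed 8 were higher (16.83% of all genes were), and after quantile normalisation 7 (17.25% of all genes).

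None of 29 replication genes and none of 22 mitosis genes was called higher, while 9 (31.0%) and 8 (36.4%) were called lower, against 15.5% of all genes, with medians of -0.19 and -0.32. Ccnb2, a mitotic cyclin, was at 6.77, 6.75 and 6.28 and then at 5.74, 5.76 and 5.43, and Cdc20, an activator of the anaphase complex, was at 6.22, 6.37 and 5.80 and then at 5.30, 5.55 and 5.04. Pold1, a catalytic subunit of DNA polymerase delta, fell from 4.32, 4.60 and 4.27 to 3.44, 3.38 and 3.48 (difference -0.96, SE 0.12). Mki67 (0.41) and Mcm2 (-0.05) did not pass. With the 2 libraries that stood apart left out, 14 and 10 were lower and 2 and 5 higher. With the span trend removed 6 and 5 were lower, and after quantile normalisation 4 and 6, with medians of -0.09 and -0.18.

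Of 18 regulators of the G1 phase 3 were higher and 3 lower, 16.7% in each direction and near the 15.5% of all genes. One of the lower ones, Cdkn2c, met the filter only through 24 h. Its call was lost without 24 h replicate 1 or 2 or 72 h replicate 1 or 3. It was also lost after quantile normalisation, with the span trend removed and without the filter on low values. The inhibitor gene Cdkn1c fell from 4.47, 4.46 and 3.94 to 2.76, 3.15 and 2.66. Cyclin D3 (Ccnd3) rose by 0.68 and cyclin D1 fell by 0.90, and the call of Ccnd3 did not hold once the span trend was removed. Among Polycomb genes (4 higher and 1 lower of 14, or 28.6% and 7.14% against 15.5%) Jarid2, a cofactor of PRC2, went from 2.67, 2.94 and 3.38 to 4.71, 4.31 and 4.86 (difference 1.63, SE 0.19), Suz12 rose by 0.78 and Phf19 fell by 1.17. Ezh2 (0.02) and Eed (0.07) did not pass.

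Some gene groups differ in genomic span from the rest. All 80 cytosolic ribosomal protein genes had a negative difference (median -0.70), but only 9 passed, or 11.2% against 15.5% of all genes called lower. Their median span was 3179 bp, within the shortest class of genes (up to 6011 bp). Rps14 was at 10.27, 9.94 and 8.18 at 24 h and at 7.95, 9.22 and 7.46 at 72 h, so the 2 libraries that stood apart made the groups overlap. The list median was -0.40 with the span trend removed (9 lower), -0.24 after quantile normalisation (6 lower) and -1.27 without the 2 libraries (80 lower). At 24 h 79 of the 80 were called above serum, and 10 were at 72 h.

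Nuclear genes of the respiratory chain had 7 of 76 lower (9.21%, below the 15.5% of all genes), none higher and a median of -0.46. With the span trend removed 3 were lower (median -0.31), after quantile normalisation 8 were lower and 3 higher (median -0.24), and without the 2 libraries 67 were lower. Proteasome genes gave no call among 31 (median -0.29), and 19 lower without the 2 libraries. Large chromatin regulators, with a median span of 99016 bp, had 20 of 20 positive differences, 7 called higher (15.5% of all genes were; median 0.83), 6 with the span trend removed and 20 without the 2 libraries. Crebbp, a histone acetyltransferase, was at -0.04, 0.74 and 1.88 at 24 h and at 2.36, 1.68 and 2.75 at 72 h, below the 3.32 to 3.55 of serum at both times, and its call was lost without 24 h replicate 1 or 2 or 72 h replicate 1 or 3.

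Replication-dependent histone genes were lower in 7 of 13 tested (53.8% against 15.5% of all genes, median -1.16), and in 4 with the span trend removed (median -0.94). In 1 of the 13 the filter was met by 1 group only. Hist1h4i, not called without 24 h replicate 1 or 2 or 72 h replicate 3, was at 1.46, 1.51 and -0.25 against -1.31, -0.51 and -3.37. Many of these genes share sequence with other copies for the same histone, and how reads were divided among such copies is unknown. None of 13 mitochondrially encoded genes passed (median 0.22). Of 11 genes of the two-cell-like state 1 rose and 1 fell (9.09% each, below the 15.5% of all genes). Without the 2 libraries that stood apart 7 were lower (median -0.59), in a setting where 34.32% of all genes were. The 5 Zscan4 copies tested, which share sequence, differed by -0.59 to -0.38 in the reported fit. The share that gene span has in these differences was not tested.

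Leaving out the 2 libraries that stood apart moved other counts by over 1.5 times, as it did the calls over all genes (from 15.5% to 27.99% higher and to 34.32% lower), so the counts say nothing about the lists alone. Calls of higher genes went from 4 to 7 of 10 primitive endoderm markers, from 7 to 11 of 18 matrix and adhesion genes, from 3 to 6 of 18 G1 regulators (lower, from 3 to 5), and from 4 to 8 of 25 genes of lipid synthesis (lower, from 2 to 7). Antioxidant genes went from 3 to 5 higher and p53 targets from 2 to 4 higher and 3 to 5 lower. ERK targets went from 2 to 4 higher, and SRF and YAP targets from 1 to 3 higher. Calls of lower genes went from 7 to 11 of 22 amino acid stress genes, from 7 to 13 of 13 histone genes and from 1 to 3 each of core pluripotency, LIF, germ line and Polycomb genes. Lower calls of BMP genes went from 1 to 2, of mitochondrially encoded genes 2 were then higher and 2 lower, and neural markers went from 0 to 1 higher and fibroblast markers from 2 to 1 lower.

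**Figure D5:**
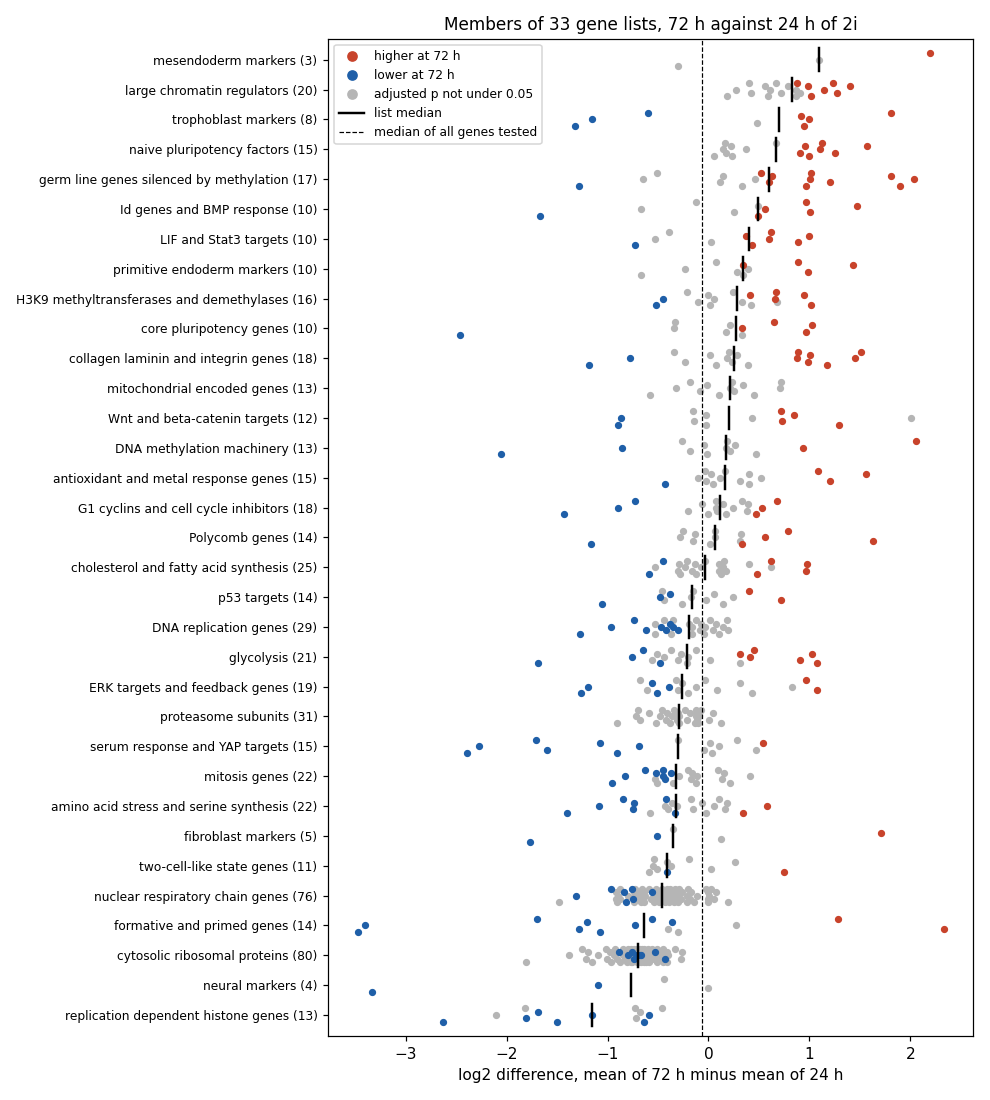
Log2 difference (72 h minus 24 h) of each tested member of 33 gene lists, ordered by list median (black bar), with the number of members in brackets. Red and blue points are genes called higher and lower at an adjusted p under 0.05, grey points the rest, and the dashed line is the median of all genes (-0.07). Naive factors and large chromatin regulators lie to the right of 0, and ribosomal protein and histone genes to the left.

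Setting the 72 h levels on the way from serum to 24 h describes which differences had turned back and which had not. No upper limit was set, so a gene that went beyond serum to its other side also counts as past the midpoint. Fgf8 was such a gene, with means of -0.60 in serum, 1.74 at 24 h and -1.74 at 72 h. The 24 h libraries enter both steps, so a chance excursion at 24 h appears as a return, and the counts are descriptions. Of 3375 genes that passed 24 h against serum with a difference of 1 or more, 898 (26.6%) lay at 72 h past the midpoint back to serum, 1675 (49.6%) lay between the midpoint and the 24 h level and 802 (23.8%) had moved farther from serum. Genes raised at 24 h were back in 28.7% and genes lowered in 24.1%, but the order turned under quantile normalisation (23.5% and 24.4%) and the gap was wider with a pseudocount of 1 (32.3% and 17.3%). With the span trend removed the shares were 21.9% back, 50.5% between and 27.6% farther, of 2949 genes.

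Arid5b, a chromatin factor, was among the clearest returns: from 4.92 to 5.07 in serum it fell to 0.90, 1.33 and 2.42 at 24 h and was at 4.07, 3.43 and 4.33 at 72 h. Uprt, a gene named for uracil salvage, went from 0.87 to 1.19 to -5.44, -3.76 and -3.67 and then to -1.34, -1.71 and -1.22, just past the midpoint. Uprt and Cyp2b23 met the filter only through serum, which fixed their fall by 24 h. Foxd3, Lcor and Cyp2b23 also crossed the midpoint, the last being a member of a gene family with close relatives.

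Among the 5 largest differences that stayed within 0.5 of the 24 h level were 2 genes known to depend on ERK. Myc stood at 5.05 to 5.23 in serum, at -0.24, -0.26 and -0.45 at 24 h and at -0.72, -0.65 and -0.50 at 72 h, so its loss was nearly complete at 24 h (difference -0.31, adjusted p 0.0524). Etv4 was at 4.79 to 5.09, then at -0.51, -0.19 and -0.45 and at -0.80, -0.64 and -0.90 (difference -0.39, adjusted p 0.0345). Its call was lost without 24 h replicate 2 or 72 h replicate 1 or 3 and in the fit of the 6 libraries alone. The same held after quantile normalisation, with the span trend removed, without the filter on low values and with a pseudocount of 1. S100a13 was the only gene of the 5 that had risen, from 1.04 to 1.18 in serum to 7.42, 6.90 and 6.24 at 24 h and 6.48, 7.08 and 6.15 at 72 h. Tnfsf11 was at the entry for genes without reads in 2 libraries of 24 h and all 3 of 72 h, and Sned1 was at -3.75, -3.58 and -1.90 and then at -3.38, -4.00 and -2.81. Without the 2 libraries that stood apart S100a13 was called lower (adjusted p 0.0152), Myc lower and Sned1 higher (0.0369).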

How the data were processed

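RNA-seq of wild-type E14 ESCs (serum, 6, 24 and 72 h of 2i, 3 replicates each) was used. Per the deposited table, expression is on a log2 scale after the authors' correction for gene length and depth, with GRCm38 coordinates. The submitters' processing notes name Trim Galore 0.3.5, TopHat2 2.0.11 and Bismark 0.12.3 without roles, and no source used here gives the counter. No counts were at hand, so depth is unknown and no count model was fitted. Genes with a log2 value of 0 or more in at least 3 of the 12 libraries were tested in limma 3.58.1 (R 4.3.3), with 1 mean per group over all 12 libraries. A call needed an adjusted p (Benjamini-Hochberg) below 0.05. The fit was tested on simulated data. Named genes are the 10 largest non-overlapping rises and falls of 1 or more (without predicted or duplicate symbols), the 4 largest differences of each list, all naive factors and DNA methylation genes, and the 5 largest 24 h differences of 2 or more that returned past the midpoint and the 5 within 0.5; other genes are named as background members of their list, after their values were seen. The comparison, members and lists were chosen with earlier results of these data known. Alternatives were left-out libraries, a replicate block, other normalisations and filters, a pseudocount of 1, removal of the span trend and a fit of the 6 libraries alone. The omission of the 2 libraries that stood apart was chosen after seeing the data. Promoters are from RefSeq (GRCm38.p6), with an entry for 8329 tested genes.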

Additional observations from a re-analysis of the deposited data

How the results depend on the processing

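The genes changed at 72 h against 24 h of 2i numbered 3818, and 1564 with only the 6 libraries, 7668 without the 2 libraries that stood apart, 1170 with a difference of 1 or more and 2369 to 6618 with single libraries left out. In the same order, genes higher at 72 h than at 24 h went from 1913 to 820, 3444, 584 and 1221 to 2931, and genes lower at 72 h than at 24 h from 1905 to 744, 4224, 586 and 1148 to 3687. Calls in the gene lists went from 196 to 91, 453 and 120 to 402 (single libraries left out). Pairing by replicate number was mixed. Deviations at 24 h and 72 h correlated at -0.249 in replicate 1, 0.577 in replicate 2 and 0.813 in replicate 3. Replicate 1 of 24 h went with replicate 2 of 72 h instead. Replicate 3 had the highest span gap of its group in serum and at 6, 24 and 72 h. The reported fit has no term for replicate. A replicate block kept all 3818 calls and gave 5622, 3070 of them lower, and 351 in the gene lists. With a pseudocount of 1, 537 genes were back past the midpoint and 412 farther. The difference by gene span, 0.62, became 1.11 without the 2 libraries (0.44 to 0.91 with single ones left out). Of 126 named genes called, 101 kept the call with every single library left out and 88 under every alternative. The fit of the 6 libraries alone lost 34 of these calls, among them Fn1, L1td1, Kdm3b, Cdx1, Krt8, Hk2, Pim1, Etv1 and Sycp3.

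Direction turned for 9 genes that were not called in the reported fit. Quantile normalisation gave Sned1 0.0193, Tnfsf11 0.24 and Uhrf1 0.15. Removing the span trend gave Nes 0.20, Tet3 -0.0421 and Uhrf1 0.0815. Without the 2 libraries Sned1 was at 0.57 and Nes at 0.46, both then called higher (limma adjusted p 0.0369 and 0.0143). In that setting the differences were, for Nanog -0.0796, Uhrf1 0.0206, Fbxo15 -0.0778, Uhrf2 0.06 and Nr0b1 -0.27. With single libraries left out the ranges were -0.65 to 0.27 for Sned1, -0.20 to 0.28 for Nes, -0.0496 to 0.57 for Tet3, -0.0103 to 0.30 for Nanog, -0.0546 to 0.0389 for Uhrf1, -0.0016 to 0.39 for Fbxo15, -0.13 to 0.0216 for Uhrf2 and -0.16 to 0.19 for Nr0b1. The cause was not tested.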

Other observations

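The 9 gene families that follow were grouped by symbol after their values were seen. Of 6 fibroblast growth factor genes tested, 4 fell and 1 rose: Fgf8 by -3.48, Fgf17 by -3.44, Fgf15 by -2.01 and Fgf18 by -1.88 on the log2 scale, with Fgf4 at 0.44. Of 5 Wnt ligands 3 fell, among them Wnt4 (-1.79) and Wnt9a (-1.09), and Wnt7b rose (1.22).

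Hox genes, which pattern the body axis, were higher in 5 of 9 tested, with Hoxa10 at 3.27 and Hoxb13 at 1.36. Hoxa10 met the filter on low values only through the 72 h group, so its direction follows from it, as does that of Rhox9. Rhox genes, a reproductive homeobox cluster on the X chromosome, were higher in 5 of 6, with Rhox9 at 2.26, Rhox6 at 2.06 and Rhox5 at 0.73. All 3 stathmin genes, which bind tubulin, were lower (median -1.73). In the other 4 families, 4 were higher and 2 lower of 13 glutathione transferase genes, 2 and 2 of 6 carbonic anhydrase genes, 2 and 5 of 10 MHC class I genes and 2 and 3 of 6 interferon-induced Gbp and Oas genes. Among these, Car8, Car12, H2-Q10, Gstt1 and Gbp3 met the filter through 1 group only. The percent of all tested genes called higher or lower was 15.5% each.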
